A study of Mus musculus with 42 samples.

Results

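*Pcsk5* is 1 gene of the 20462 that the deposited tables of this series list, and it was chosen by 2 measured differences: its RNA was more than 100-fold higher in WT distal colon crypts of one mouse colony after dextran sulfate sodium (DSS; the ratio was 66.6 in WT mice of the other colony), and higher still in *Mtg16*-/- crypts after DSS. The contrasts that chose it, and those that share their WT distal or *Mtg16*-/- libraries, are therefore described here without a test of *Pcsk5*. The series holds 42 libraries under 14 conditions, and *Pcsk5* was read in every one of them.

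*Pcsk5* encodes PC5 (also called PC5/6), a subtilisin-like serine protease of the secretory pathway. Proprotein convertases cut precursor proteins after paired basic residues, which turns inactive proforms of growth factors, receptors, adhesion molecules and other proteases into their mature forms. PC5 is made in a soluble form and in a longer, membrane-anchored form, it can be held at the cell surface by heparan sulfate proteoglycans together with tissue inhibitors of metalloproteinases, and the intestinal epithelium is known as one of its sites of expression. DSS in drinking water injures the colon lining, most of all in the distal colon, and the crypts repair it after DSS is withdrawn.

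All mice were on a C57/BL6 background and at least 8 weeks old. *Mtg16*-/- mice lack the transcriptional corepressor MTG16 (listed as *Cbfa2t3*), *Mtg16* T/T mice are homozygous for its P209T change, and each line was bred from heterozygous parents in a colony of its own with WT littermates. Untreated mice gave crypts freed by chelation from the proximal 5 cm of colon (2 WT and 2 *Mtg16*-/- libraries of one colony, 2 WT and 2 T/T of the other) and from the distal 5 cm (4 WT and 4 *Mtg16*-/-, 3 WT and 4 T/T). After 5 days of 2% DSS and 4 days of recovery, distal crypts gave 3 WT and 4 *Mtg16*-/- libraries and 3 WT and 3 T/T libraries. Distal tumors (3 WT, 3 T/T) came from mice given 10 mg/kg azoxymethane and 3 cycles of 3% DSS (4 days of DSS and 16 days of water in each). Crypt isolates hold every epithelial cell type, and in such bulk RNA fewer cells of a type and less RNA per cell cannot be told apart. The names of the libraries open with 1 of 6 numbers, whose meaning the labels do not give. No library after DSS shared that number with an untreated one, so DSS and whatever the number stands for cannot be told apart, and the same holds for the tumors.

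Normalized counts are the authors' read counts per gene divided by 1 size factor per library, with a separate scale in every table. From these values whole reads were recovered in 38 libraries, with 32231389 to 74661961 reads (median 46659626), and scaled together for comparisons between tables, which gives what is called a jointly scaled count below. The 4 proximal mutant libraries lie outside this joint scale. *Cbfa2t3* was lower in *Mtg16*-/- crypts after DSS (526 ± 83.2 normalized counts, SD, n = 4) than in WT (2128 ± 349.9, n = 3), with a log2 difference of -2.02 and an adjusted p of 0.00292 from limma. In untreated distal crypts its log2 difference was -1.11 (725 ± 277 against 1514 ± 341, adjusted p = 0.303 from limma) with all libraries and -1.33 (602 ± 154, n = 3, adjusted p = 0.0358) without the library described next. In proximal ones it was -1.49 (844 ± 301 against 2428 ± 1122, adjusted p = 0.445). The T/T allele still makes RNA, so the level of *Cbfa2t3* does not check those labels.

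One library went against its label. The library labelled distal *Mtg16*-/-, untreated, replicate 2 had 0 jointly scaled counts of *Hoxd13* and 277 of *Hoxb13*, homeobox genes that mark the hindmost gut, against 4009.5 to 7608 and 19678 to 22304 in the 7 WT distal libraries. It had 5190.5 counts of *Osr2*, a transcription factor gene high in the proximal colon, against 5241 to 7857 in the 4 WT proximal libraries and at most 2.93 in the WT distal ones. Of the 24 genes besides *Pcsk5* with the largest excess in WT proximal over WT distal crypts, all 24 lay nearer the proximal mean in that library, and so did 22 of the 24 genes with the largest distal excess. None of the 24 proximal genes did so in any other untreated distal library. Values of *Pcsk5* and calls that rest on that library are given with it and, where a fit could be made, without it.

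*Pcsk5* (ENSMUSG00000024713.16) lies on chromosome 19 from 17432319 to 17837632 of GRCm38, on the minus strand. GENCODE vM21 lists 5 transcripts, of which 2 are protein coding. The longer has 38 exons and 7188 bases and the shorter 21 exons and 5768 bases, and both start at the same base. The tables sum all transcripts of a gene, so the soluble and the membrane-anchored form were not told apart. A short processed pseudogene on the opposite strand (AC125203.1) overlaps the gene and has no row in the tables.

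The bases around that shared start are shown because the study turns on MTG16, a repressor of E proteins, which bind E-boxes, and of other transcription factors. RefSeq gives chr19:17837583-17837882 of GRCm38.p6, minus strand, from 250 bases before to 50 bases after the start, printed 5′ to 3′ with GC boxes (GGGCGG) in capitals.
Pcsk5 promoter: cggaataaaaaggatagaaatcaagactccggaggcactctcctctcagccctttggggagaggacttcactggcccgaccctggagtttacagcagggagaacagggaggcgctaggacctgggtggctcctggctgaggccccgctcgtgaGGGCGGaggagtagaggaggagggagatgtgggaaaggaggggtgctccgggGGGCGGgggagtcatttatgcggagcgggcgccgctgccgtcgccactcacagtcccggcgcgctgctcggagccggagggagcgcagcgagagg

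The GC box GGGCGG was found at 2 places that do not overlap, beginning 97 and 45 bases before the start, and 35.7% of 32851 promoters of the same length held it on either strand. No E-box (CANNTG), a motif that 72.3% of those promoters held, was found on either strand of these 300 bases. Neither TGANTCA, the AP-1 motif (7.81% of promoters), nor TATAAA, the TATA box (13.6%), was found. These matches describe the letters of this window alone.

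In untreated WT mice *Pcsk5* was a gene of the proximal colon. The 4 proximal libraries had 2371 and 2457 normalized counts in the *Mtg16*-/- colony and 2335 and 2637 in the T/T colony. The 7 distal libraries had 1.28, 0, 1.89 and 2.04 in the first colony and 1.11, 1.05 and 3.46 in the second, values that stand for 0 to 3 reads each. No distal library came near a proximal one. The means were 2450.1 ± 135 (SD, n = 4) and 1.55 ± 1.08 (n = 7), and the log2 difference, distal minus proximal, was -10.03 (standard error 0.327). The distal WT libraries are also those that the choice of *Pcsk5* rested on, so no test is given, whereas the proximal ones played no part in it. Within the libraries whose names open with 4149, 2 of each segment, the log2 difference was -9.67. By size of the proximal excess *Pcsk5* stood at place 5 of the 8466 genes with more than 500 normalized counts in each proximal library.

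**Figure D1:**
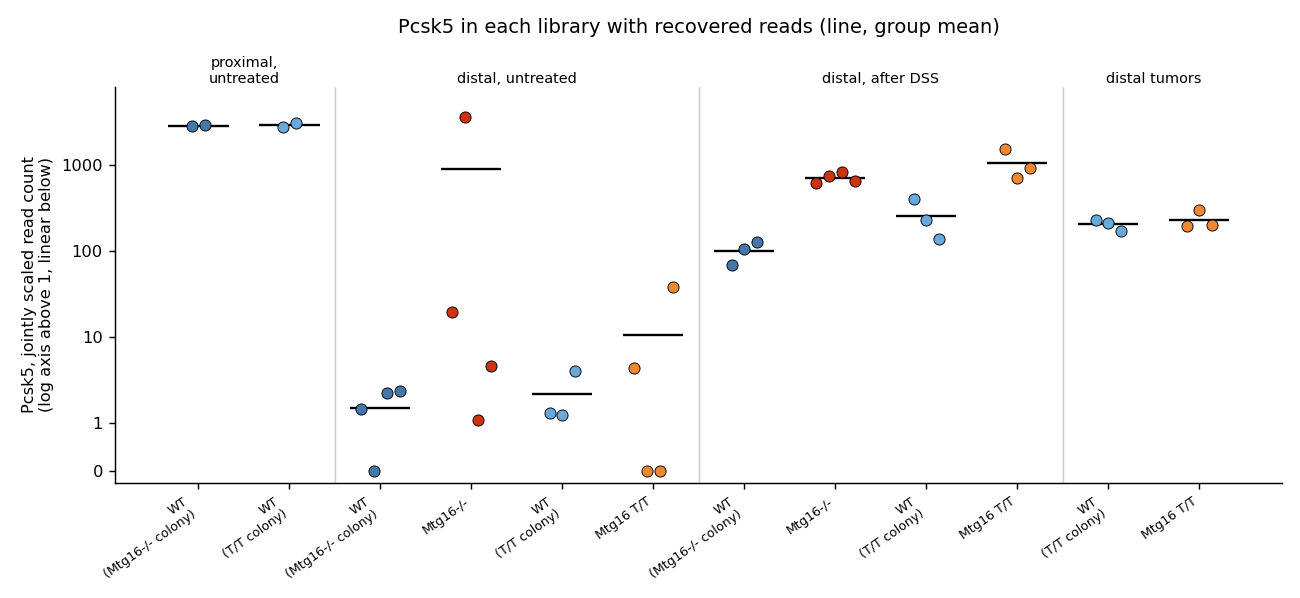
Jointly scaled read count of *Pcsk5* (vertical axis, log above 1 and linear below) in each of 38 libraries, by colon segment, treatment and genotype; points are libraries and lines are group means. The 4 WT proximal libraries sit between 2736 and 3099, the 7 untreated WT distal ones at 4.00 or below, and the 13 after DSS between 69.5 and 1549. The lone high point among untreated *Mtg16*-/- distal libraries, at 3610.0, is the library that went against its label.

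After DSS, WT distal crypts of both colonies held *Pcsk5* RNA. In the table of the T/T colony the 3 WT libraries after DSS had 367, 217 and 126 normalized counts (565, 210 and 154 reads) and the 3 untreated ones 1.21, 1.12 and 3.69 (1, 1 and 3 reads). Every library after DSS lay far above every untreated one. The means were 237 ± 122 (SD, n = 3) and 2.01 ± 1.46 (n = 3), a ratio of 118 and a log2 difference of 6.27 on the log2(count + 1) scale, which understates the change of a gene so low. Since 5 reads carry the untreated value, the ratio is loose. Per assigned read it was 122-fold, with an exact 95% interval of 52.0 to 376 that covers counting error only.

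In the WT mice of the *Mtg16*-/- colony, the 3 libraries after DSS had 71, 117 and 148 reads and the 4 untreated ones 1, 0, 3 and 2. On the joint scale they averaged 100.2 ± 28.6 (SD, n = 3) and 1.51 ± 1.08 (n = 4), a log2 difference of 5.44. Per assigned read the ratio was 62.6 (exact 95% interval 28.5 to 172). The groups again did not overlap, and the level after DSS was lower than in the T/T colony's WT mice, whose libraries ran from 139 to 397 on the joint scale against 69.5 to 126. The library names of these colonies after DSS open with different numbers, so colony and number cannot be told apart.

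The choice rule asked for a rise of more than 100-fold. Of 13564 genes with a mean of at least 10 normalized counts and any reads in untreated WT crypts, *Pcsk5* was the one gene past that ratio, and a further 2 genes had 0 reads in all 3 untreated libraries. Just outside it stood *G530011O06Rik* with a ratio of 79.1 and *Amph*, which encodes the membrane-bending protein amphiphysin, with 72.7.

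RNA of long transcripts read lower in these libraries after DSS. In the WT comparison of the T/T colony, genes whose longest transcript was within 20% of that of *Pcsk5* (1489 genes) had a median log2 change of -0.47, against 0.18 for genes whose longest transcript was under 2000 bases (2987 genes) and 0.00 for all 13566. In the WT comparison of the *Mtg16*-/- colony the same medians were -0.14, 0.09 and -0.02. *Pcsk5* moved against that trend. With each library's trend over transcript length removed, its log2 difference was 6.89 in the first comparison and 5.59 in the second. Between *Mtg16*-/- and WT crypts after DSS the long and the short genes had medians of -0.09 and 0.14, and between T/T and WT crypts 0.25 and -0.08, the direction of *Pcsk5* itself. Without the trend the log2 difference of *Pcsk5* was 2.93 in place of 2.85 in the first of these and 1.79 in place of 2.08 in the second.

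In *Mtg16*-/- distal crypts after DSS *Pcsk5* stood higher again. The 4 *Mtg16*-/- libraries had 674, 804, 909.6 and 710.4 normalized counts and the 3 WT libraries 76.8, 114 and 135. The lowest *Mtg16*-/- library lay above the highest WT library by a wide margin. The means were 775 ± 105 (SD, n = 4) and 109 ± 29.5 (n = 3), a ratio of 7.13 and a log2 difference of 2.85. Limma called 0.629% of the 14476 genes in this comparison (0.38% higher and 0.249% lower), and since the contrast chose *Pcsk5*, nothing is read from its place there. Same-numbered libraries deviated together here, and with the replicate number as a block 8.78% were called (5.72% higher and 3.06% lower), while the log2 difference of *Pcsk5* was 2.89.

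The T/T mice were not part of the choice, although their WT littermates were. After DSS the 3 T/T libraries had 1506, 681 and 923 normalized counts and the 3 WT libraries 399, 234 and 133. All T/T libraries lay above all WT libraries. The means were 1036 ± 424 (SD, n = 3) and 255 ± 134 (n = 3), a ratio of 4.06. The log2 difference was 2.08 (standard error 0.473), and 2.03 with DESeq2 and 2.05 with edgeR on the recovered reads. Since the WT libraries took part in the choice of *Pcsk5*, it is given without a test. Over all 13648 genes limma called 0, or 0% (1197 had an unadjusted p under 0.05), DESeq2 331 and edgeR 0. Set against WT mice of the other colony after DSS, which are no littermates, the log2 difference was 3.35. With any 1 library left out the littermate difference ran from 1.68 to 2.47.

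**Figure D2:**
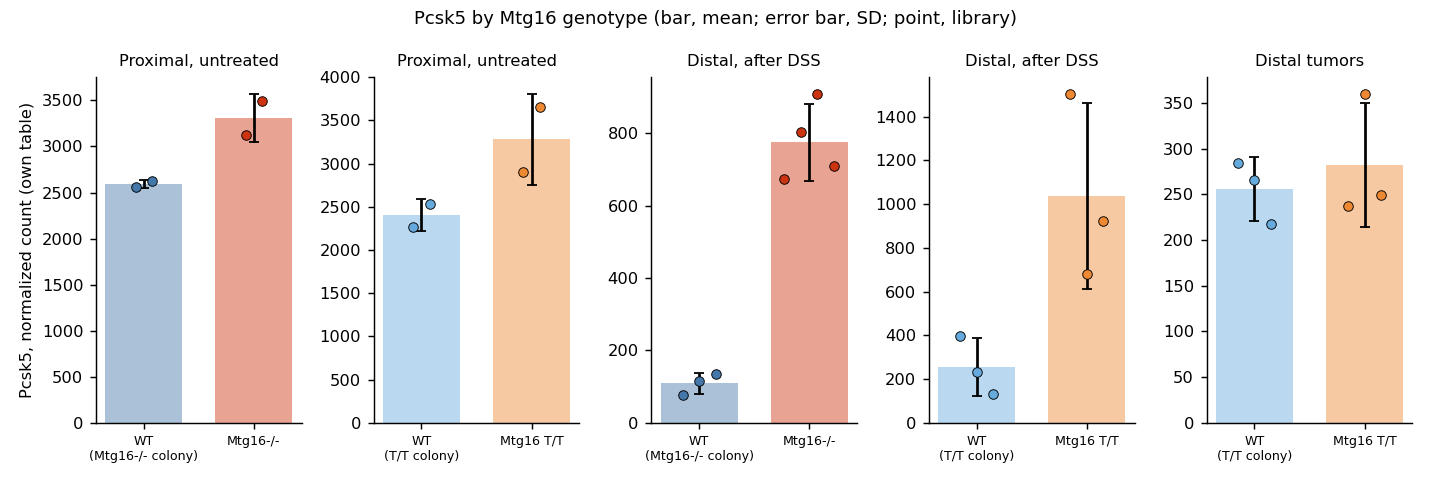
Normalized count of *Pcsk5* (vertical axis, each panel on the scale of its own table) in mutant and WT littermates; bars are means, error bars SD and points libraries. After DSS the mutant means are 775 and 1036 against 109 and 255 in WT with no overlap, in proximal crypts 3310.0 and 3280.0 against 2589 and 2403, and in tumors 282 against 256 with overlap.

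T/T crypts after DSS were also compared with untreated T/T crypts, libraries of which none entered the choice. Their names open with the numbers of their WT littermates, 5094 untreated and 5740 after DSS. Whatever these numbers stand for thus enters this comparison as it did the WT one that chose *Pcsk5*. The untreated ones had 4, 0, 0 and 30 reads and those after DSS 1403, 476 and 991. On the joint scale the means were 10.6 ± 18.4 (SD, n = 4) and 1057 ± 442 (n = 3), and the groups did not overlap. The log2 difference was 8.04 (standard error 1.23, adjusted p = 0.0195 from limma, which called 4.09% of 13893 genes, 2.39% higher and 1.7% lower). Its adjusted p rose to 0.0587 without untreated replicate 2, 0.0526 without untreated replicate 3, 0.107 without DSS replicate 1 and 0.0534 without DSS replicate 3. With any 1 library left out the log2 difference ran from 7.40 to 9.16. The two-sided exact permutation test gave p = 0.0571, the smallest that 3 against 4 allow.

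*Mtg16*-/- crypts before and after DSS were compared on the joint scale as a description. With all 4 untreated libraries, whose values were 1.08 to 3610.0, the mean was 909 ± 1801 (SD), above the mean after DSS of 712 ± 96.7 (n = 4), and the log2 difference, after minus before, was 4.53. Without the library that went against its label the log2 difference was 6.83. edgeR and DESeq2, which compare means of counts, gave -0.31 and -0.32 with that library in and 6.51 and 6.49 without it.

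In untreated distal crypts the *Mtg16*-/- libraries had 17.4, 3196, 0.947 and 4.09 normalized counts and the WT libraries 1.31, 0, 1.94 and 2.08. Apart from replicate 2, the values of both genotypes stood for at most 15 reads. The WT libraries took part in the choice, so no test is given. The log2 difference was 3.69 (standard error 2.04), with 9.01 from edgeR and 9.22 from DESeq2, and 1.41 without replicate 2, when both of those tools leave *Pcsk5* out for a mean under 10 reads and the mean was 7.47 ± 8.73 (SD, n = 3) against 1.33 ± 0.951 (n = 4). Over all genes limma called 0.239% of 13831 with that library and 1.04% of 13720 without it. The T/T libraries had 3.39, 0, 0 and 30.6 normalized counts and their WT littermates 1.04, 0.98 and 3.19, a log2 difference of 0.42, again given without a test. Without T/T replicate 4, which had 30 reads, it turned to -0.65, and with any 1 library left out it ran from -0.65 to 1.01.

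In proximal crypts, where the gene is high, both mutants lay somewhat above WT. *Mtg16*-/- libraries had 3123 and 3497 normalized counts and WT 2557 and 2620.2, a log2 difference of 0.35 (standard error 0.116, adjusted p = 0.709 from limma, 0.0645% of 13944 genes called). T/T libraries had 2905 and 3655 and WT 2269.7 and 2536, a log2 difference of 0.44 (standard error 0.131, adjusted p = 0.292, 0.232% of 13767 genes called). Neither pair of groups overlapped and neither passed the test, and with 2 libraries against 2 the exact permutation test cannot give a p below 0.333, which it gave for both.

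In distal tumors the levels of *Pcsk5* overlapped between the genotypes. The WT tumors had 284, 266 and 217 normalized counts and the T/T tumors 237, 360.4 and 249, groups that overlap. The log2 difference, T/T minus WT, was 0.12 (standard error 0.222, adjusted p = 0.998 from limma, 0 of 15900 genes called or 0%, 392 at an unadjusted p under 0.05, with 0 called by edgeR and 24 by DESeq2). On the joint scale the WT tumors averaged 205 ± 29.6 (SD, n = 3) against 2.17 ± 1.59 (n = 3) in untreated WT distal crypts of that colony, a log2 difference of 6.12 (standard error 0.396). The untreated libraries in that comparison are among those that chose *Pcsk5*, so no test is given. Tumors are whole tissue and not crypts. The summed count of 6 fibroblast markers was 103342 to 142171 in WT tumors against 46.5 to 123 in those crypts, and the part of such cells in the level of *Pcsk5* there was not tested.

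Every distal group after DSS stayed below the proximal level of *Pcsk5*. With the mean of the 4 WT proximal libraries (2879 ± 158 on the joint scale) as 100%, the distal WT libraries after DSS stood at 3.48% in the *Mtg16*-/- colony and 8.86% in the T/T colony, *Mtg16*-/- at 24.7% and T/T at 36.7%. Single libraries after DSS ran from 2.41% to 53.8%. The WT tumors stood at 7.13%.

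The other genes of high proximal level are set beside *Pcsk5* as a description. The 24 genes were picked after their values were seen and by untreated libraries alone, whereas *Pcsk5* was picked for being high after DSS in WT and higher in *Mtg16*-/- crypts, so its place among them there follows from the choice and no test is given. In WT crypts after DSS their median was 0.966% of the proximal level in the *Mtg16*-/- colony, where 5 of 24 lay above *Pcsk5*, and 1.29% in the T/T colony, where only *B3gnt6* (16.9%), a core mucin glycosyltransferase gene, did. In *Mtg16*-/- crypts the median was 3.41% and in T/T crypts 3.01%, and in neither did any of the 24 exceed *Pcsk5*. Next to it came *Sptssb*, a subunit of serine palmitoyltransferase, at 16.2% in *Mtg16*-/- crypts, and *Epop*, an Elongin and Polycomb partner, at 20.2% in T/T crypts.

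Of the transcription factor genes among them, *Osr2* was at 0.0173% to 1.31% of the proximal level in the 4 groups after DSS, *Tbx3* at 0.129% to 1.10% and *Hoxb8* at 0.444% to 1.48%. In untreated WT crypts of the *Mtg16*-/- and T/T colonies *Osr2* was at 0.0266% and 0%, *Tbx3* at 0.203% and 0.161% and *Hoxb8* at 0.346% and 0.618%. *Osr2* thus rose after DSS in WT crypts of the *Mtg16*-/- colony, to 0.772%. *Slc51a*, which is no such factor, was as low, at 0.117% to 0.719% after DSS. The antimicrobial lectin genes *Reg3b* and *Reg3g* stood at 2.27% to 15.7% and 2.83% to 14.0%. On the distal side *Hoxd13* had means of 1564 to 3269 jointly scaled counts in the groups after DSS, against 5156 in the 7 untreated WT distal libraries and 0 in the 4 WT proximal ones. The 24 genes of largest distal excess had median log2 changes after DSS of -0.37 in WT crypts of the T/T colony, -0.46 in WT crypts of the *Mtg16*-/- colony and -1.36 in T/T crypts, and median differences from WT after DSS of -0.76 in *Mtg16*-/- and -0.85 in T/T crypts. The medians over all genes tested lay between -0.07 and 0.03, and as these genes were picked after their values were seen, no test is given.

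**Figure D3:**
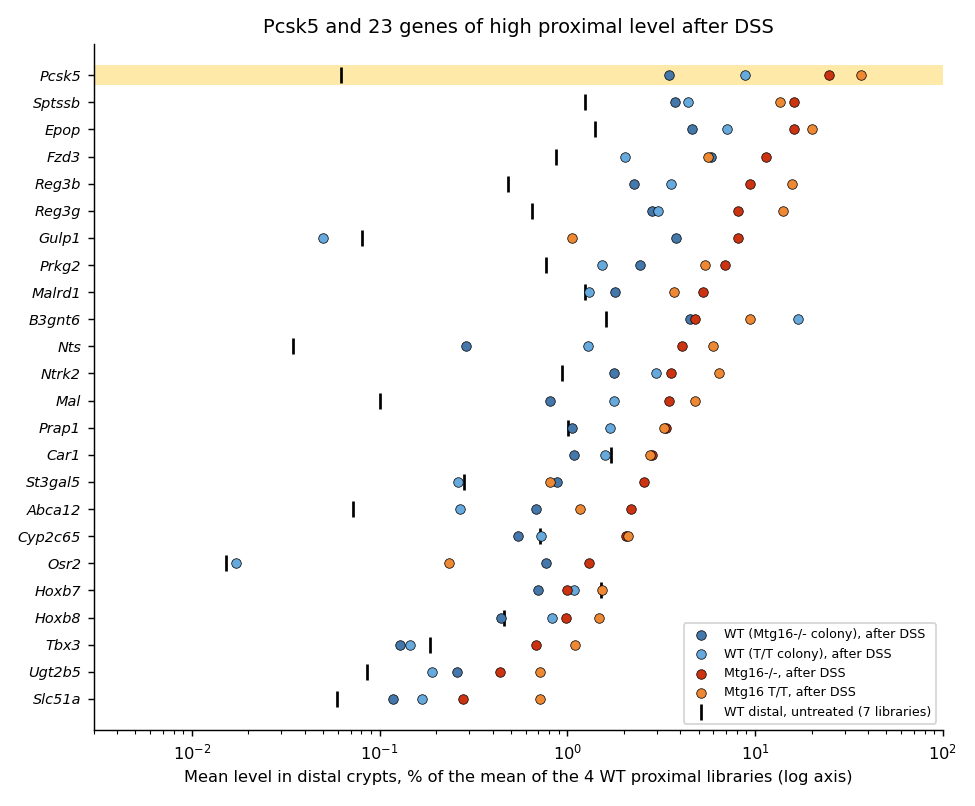
Mean level in distal crypts of *Pcsk5* (shaded row) and 23 of the 24 genes of largest proximal excess, as a percentage of the mean of the 4 WT proximal libraries (horizontal log axis); points are the 4 groups after DSS and ticks the mean of the 7 untreated WT distal libraries. *Pcsk5* reaches 24.7% in *Mtg16*-/- and 36.7% in T/T crypts, to the right of all 23 genes in both groups (in *Mtg16*-/- it was chosen for a high value), while *Slc51a* stays under 1%.

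The other *Pcsk5* values that lay above their group went with raised proximal genes. In untreated T/T replicate 4 (30 reads) 8 of the 24 proximal genes lay above every one of the 7 WT distal libraries, against 1 or 2 in the other T/T libraries, and in untreated *Mtg16*-/- replicate 1 (15 reads) 9 did, against 4 in replicates 3 and 4. After DSS the counts were 10 to 15 of 24 in WT libraries, 19 to 23 in *Mtg16*-/- and 15 to 23 in T/T. Whether some proximal tissue entered these distal samples was not tested.

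Markers of other cells moved beside these differences too. From untreated to DSS in WT crypts of the T/T colony, the summed jointly scaled count of 5 goblet markers went from 596613 to 718009 up to 1161017 to 1270056 (in the *Mtg16*-/- colony it was 779948 to 1090011 and 750617 to 912332), and that of 7 myeloid markers from 523 to 648 up to 626 to 1425. In WT crypts of the *Mtg16*-/- colony the myeloid sum went from 318 to 440 up to 870.5 to 3320.5. The tuft sum there went from 552 to 755 down to 311 to 479. In the T/T colony the WT mast cell sum went from 2352 to 2988 up to 3595 to 4718. The enteroendocrine sum went from 15644 to 17772 up to 17963 to 25024, and the B and plasma cell sum from 455 to 938 down to 223 to 411. After DSS the myeloid sum was 5735 to 17851 in *Mtg16*-/- crypts against 870.5 to 3320.5 in their WT littermates, and 2051 to 2468 in T/T against 626 to 1425 in theirs. The 5 tuft cell markers summed to 129 to 142 in *Mtg16*-/- against 311 to 479 in WT, and to 103 to 236 in T/T against 385 to 773. The goblet sum was 686136 to 761075 in T/T against 1161017 to 1270056 in WT after DSS, whereas in *Mtg16*-/- it overlapped with WT (585374 to 888069). The 6 enteroendocrine markers summed to 24967 to 26860 in *Mtg16*-/- against 13871 to 19401 in WT and overlapped in the T/T colony (22378 to 26939 against 17963 to 25024). Glia and neuron markers, low throughout, were at 27.6 to 53.4 in *Mtg16*-/- against 64.6 to 76.6 and at 25.4 to 79.0 in T/T against 83.2 to 107, and T cell markers at 358 to 448 in T/T against 457 to 486. Squamous markers, which include the keratin gene *Krt5*, summed to 84.9 to 108 in untreated WT and 67.3 to 127 in untreated *Mtg16*-/- crypts and to 13065 to 21012 in WT and 15813 to 44835 in *Mtg16*-/- crypts after DSS, and *Krt5* went in WT mice from 2.73 ± 3.67 (SD, n = 4) to 6358 ± 1725 (n = 3). In the T/T colony they summed to 81.4 to 117 in untreated WT crypts and to 131 to 185 and 151 to 329 in WT and T/T crypts after DSS, where *Trp63* was at 0 in all libraries. The 6 fibroblast markers, at 32.2 to 221 in untreated WT crypts of the *Mtg16*-/- colony, reached 367 to 457 in WT and 419 to 4015 in *Mtg16*-/- after DSS, and in the T/T colony they went from 46.5 to 123 in untreated WT to 155 to 385 in WT and 116 to 771 in T/T. B and plasma cell markers (4 counted) summed to 726 to 806 in T/T against 223 to 411 in WT after DSS, and to 539 to 1831 in *Mtg16*-/- against 307 to 667. The 6 endothelial markers summed to between 229 and 469.5 in all distal crypt groups. From untreated to DSS in T/T crypts the tuft sum went from 554 to 622 down to 103 to 236 and the myeloid sum from 468 to 1170 up to 2051 to 2468. The mast cell sum went from 2082 to 2540 up to 2711 to 3618 and the squamous sum from 80.0 to 94.2 up to 151 to 329. The glia and neuron sum went from 91.1 to 106 down to 25.4 to 79.0, and the sums of the other lists overlapped. The part of any of these cells in the level of *Pcsk5* was not tested.

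Among the convertases above the minimum, *Pcsk5* had the largest difference in each of the 6 comparisons plotted for the family, which its choice fixed in part, since 2 of them chose it and the others share libraries with those. The other 7 genes of the family followed here are *Furin*, *Pcsk7* and *Mbtps1*, which most cells make, *Pcsk1*, *Pcsk2* and *Pcsk4* of endocrine and germ cells, and *Pcsk6*, the closest relative of *Pcsk5*. *Pcsk2* was under the minimum, which left 6. In the WT comparison of the T/T colony after DSS 1 of them rose (*Furin*, 3938 ± 252 to 5511 ± 498 normalized counts, log2 difference 0.48, adjusted p = 0.0244 from limma), with 35.6% of all 13566 genes called, 14% higher and 21.6% lower. That share rested on single libraries, since without untreated WT replicate 2 of that colony 1 gene was called (*H2ac19*, a histone gene), and the counts of every list below fell to 0 there. In the *Mtg16*-/- colony (5.12% of 14081 genes called, 3.92% higher and 1.2% lower) *Pcsk6* rose with a log2 difference of 1.08 (adjusted p = 0.0409) and *Pcsk4* fell by 2.01 on the log2 scale (adjusted p = 0.0127). The call of *Pcsk6* was lost on leaving out 5 of the 7 libraries in turn (all but DSS replicate 3 and untreated replicate 2), and that of *Pcsk4* without DSS replicate 1. None of the 6 was called between *Mtg16*-/- and WT, between T/T and WT, or between T/T crypts after and before DSS, also with the replicate number as a block.

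*Pcsk6* was the mirror image of *Pcsk5* along the untreated colon. It had 211 ± 44.5 normalized counts in WT distal crypts (SD, n = 7) and 4.00 ± 1.74 in proximal ones (n = 4), a log2 difference of 5.45 (adjusted p = 1.09e-09 from limma, in a comparison that called 42.1% of 13841 genes). *Pcsk1*, known from enteroendocrine cells, was lower in distal crypts by a log2 difference of -2.49 (340 ± 59.0 against 1901 ± 329, adjusted p = 1.24e-08). Per kb of the longest transcript, *Pcsk5* had 400.5 ± 21.9 jointly scaled counts in WT proximal crypts, the level of *Pcsk1* (443 ± 78.4) and below *Furin* (627 ± 48.5), *Mbtps1* (891 ± 63.3) and *Pcsk7* (2093 ± 126). In untreated WT distal crypts it had 0.249 ± 0.173 per kb against 55.5 ± 12.0 for *Pcsk6*. After DSS *Pcsk5* had 13.9 ± 3.97 and 35.5 ± 18.2 per kb in the WT groups of the *Mtg16*-/- and T/T colonies, below *Pcsk6* (114 ± 36.1 and 74.8 ± 12.3), and 99.0 ± 13.5 in *Mtg16*-/- and 147 ± 61.4 in T/T crypts, where *Pcsk6* had 83.5 ± 5.81 and 76.2 ± 25.0.

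**Figure D4:**
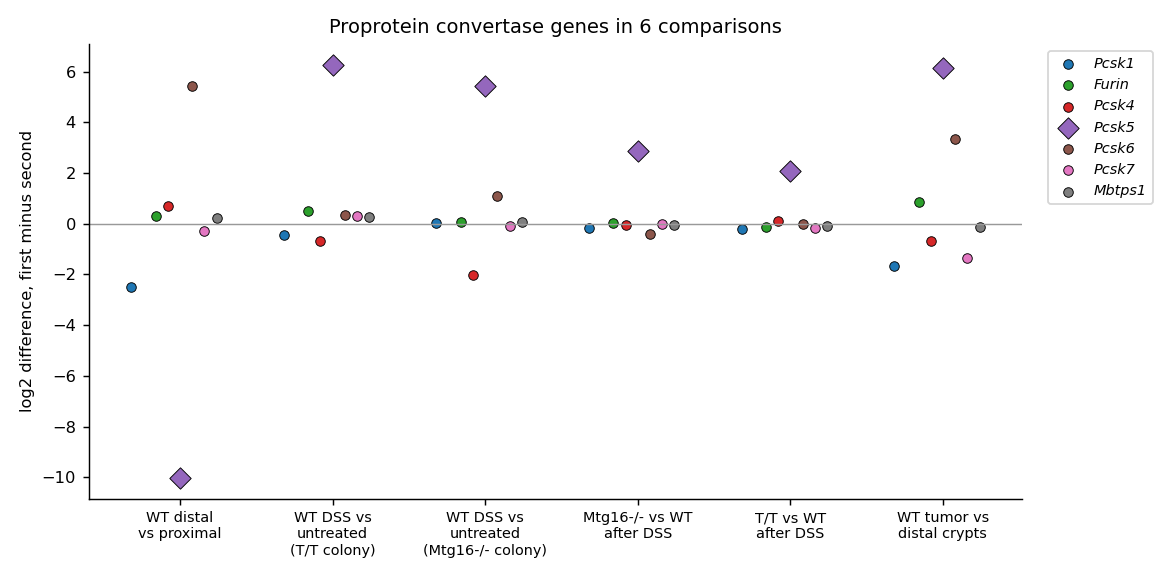
Log2 difference (vertical axis, first group minus second, log2(count + 1) scale) of *Pcsk5* (diamonds) and the 6 other convertase genes above the minimum (circles) in 6 comparisons. *Pcsk5* has -10.03 between segments and 6.27 and 5.44 after DSS in WT, while the other genes lie between -2.01 (*Pcsk4*) and 1.08 (*Pcsk6*) after DSS, and *Pcsk6* has 5.45 between segments.

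Proteins that convertases are known to mature were followed as lists. Of 22 growth factor genes 11 were above the minimum in the WT comparison of the T/T colony, and 3 rose: *Lefty1*, an antagonist of Nodal (log2 difference 1.20, adjusted p = 0.0167), *Pdgfa*, a mesenchymal mitogen (0.91, 0.00916), and *Tgfb1* (0.55, 0.0295). In the *Mtg16*-/- colony 4 of 17 rose and 2 fell (3 to 5 and 0 to 2 with any 1 library left out, beside 3.92% and 1.2% of all genes), among them *Bmp4* (5.14, adjusted p = 0.000757) and *Bmp2* (-1.18, 0.0374), both bone morphogenetic proteins. *Gdf11*, the substrate best known for PC5, had log2 differences of 0.28 and 0.72 and was called in neither. Of 18 receptor and adhesion genes 17 were tested, and 7 rose and 1 fell in the T/T colony's WT mice, beside 14% and 21.6% of all genes. With any 1 library left out 0 to 9 rose and 0 to 5 fell, and with the replicate number as a block 4 rose and 1 fell. Among those that rose were *Lrp1*, a scavenger and signalling receptor (0.83, 0.0096), and *Itga3*, a laminin-binding integrin chain (0.74, 0.00947). The one that fell was *Itga4* (-3.64, 0.0162). In the other colony 0 were called (721 genes called there in all). Of 19 protease and lipase genes 13 were tested, with 2 higher (*Mmp14* and *Mmp15*) and 3 lower (*Adam9*, *Adam10* and *Adam17*) in the first colony and 1 higher (*Bmp1*, 2.54, 0.000757) in the second. The median log2 changes of the 3 lists in the first colony were -0.04, 0.37 and 0.10, beside 0.00 over all genes. The counts of the growth factor and protease lists there also stand beside 14% of all genes higher and 21.6% lower. With any 1 library left out, 0 to 3 growth factor genes rose and 0 to 1 fell. In the protease and lipase list 0 to 4 rose and 0 to 3 fell.

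Inhibitors and matrix anchors gave the last list. Of 12 such genes 10 were tested, and *Sdc1*, a syndecan and the main heparan sulfate proteoglycan of epithelium, rose (0.70, adjusted p = 0.0173 from limma) and *Sdc2* fell (-0.58, 0.0449) in WT crypts of the T/T colony. There 14% of all genes were called higher and 21.6% lower. In the *Mtg16*-/- colony 3 rose, beside 3.92% of all genes: the glypican genes *Gpc1* (1.81, 0.000616) and *Gpc3* (2.84, 0.000232) and the metalloproteinase inhibitor gene *Timp2* (1.77, 0.00275). Over the 5 lists, no gene was called between T/T and WT crypts after DSS, where limma called 0 in all, and, *Pcsk5* not tested, none between *Mtg16*-/- and WT crypts. With the replicate number as a block, which called 5.72% of all genes higher and 3.06% lower in the second, 4 inhibitor and anchor genes were higher (*Timp1*, *Timp2*, *Sdc3* and *Pcsk1n*), 2 growth factor genes were higher (*Gdf11* and *Tgfb1*) and 2 lower (*Bmp2* and *Edn1*), 1 protease or lipase gene was higher and 2 lower, and 1 receptor or adhesion gene was higher and 1 lower. In T/T crypts after against before DSS, *Gpc1* and *L1cam* rose (1.14 and 0.80, adjusted p = 0.0439 and 0.0462) and *Edn1* fell (-2.23, 0.0407), beside 2.39% and 1.7% of all genes. Each of these list counts fell to 0 with some library left out, and to 0 with the replicate number as a block.

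The 6 genes around *Pcsk5* gave no call higher in WT crypts after DSS, beside 14% of all genes in the T/T colony and 3.92% in the other, shares too small for 0 of 6 to stand apart. The nearest protein-coding genes on the side of its 3′ end, *Rfk* (31.0 kb away, riboflavin kinase), *Gcnt1* (59.5 kb, an O-glycan branching enzyme) and *Prune2* (208 kb), had log2 differences of -0.32, -1.40 and -1.06 in WT crypts of the T/T colony after DSS, of which *Prune2* passed (adjusted p = 0.0374 from limma). On the other side *Ostf1* (678.5 kb), *Nmrk1* (794 kb) and *Carnmt1* (833 kb) had 0.04, -0.82 (adjusted p = 0.0319) and -1.19 (adjusted p = 0.0309). In that comparison 21.6% of all genes were called lower. With any 1 library left out 0 to 5 of these neighbours were called lower, and 0 with the replicate number as a block. The call of *Prune2* there was lost on leaving out 5 of the 6 libraries in turn. None of the 6 was called in the *Mtg16*-/- colony's WT mice (-0.72 to 0.31) or between either mutant and WT after DSS (-0.40 to 1.64), except that *Prune2* (0.93) was with the replicate number as a block in *Mtg16*-/- crypts. *Prune2* had 124 ± 50.2 normalized counts in T/T against 38.1 ± 12.6 in WT crypts after DSS, the 1.64 of that range. In untreated distal *Mtg16*-/- crypts it was called higher (187 ± 16.8 against 62.8 ± 15.4, 1.58, adjusted p = 0.028 from limma, and 1.54, 0.0183, without the library against its label), a call that was lost on leaving out any other of the 8 libraries. Between segments *Rfk* and *Prune2* were lower in distal crypts (-0.79 and -0.75) and *Gcnt1* higher (0.60), all far from the -10.03 of *Pcsk5*.

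Genes whose level went most like that of *Pcsk5* were ranked by Pearson's r over the 27 distal crypt libraries before and after DSS, the library against its label left out, among 14194 genes. The first 10 had r between 0.93 and 0.95: *Ccl9*, a chemokine, *Mmp28*, the metalloproteinase epilysin, *Cck*, the hormone cholecystokinin, *Mal*, a protein of apical membrane traffic, *Tnfrsf23*, a decoy death receptor, *Rhbdl3*, a rhomboid protease, *Pmepa1*, *Epop*, *B4galnt1*, a ganglioside synthase, and *Prr5l*. With that library included, 8 of the 10 remained. The rise from untreated crypts to DSS, which chose *Pcsk5*, enters this r. In WT proximal against distal crypts 9 of the 10 had lower values in distal crypts, with *Pmepa1* (0.23) the exception, beside 49.4% of all 13841 genes. The untreated WT distal libraries enter both this comparison and r, and *Pcsk5* is near 0 in them. A lean towards lower distal values is therefore partly built in, and nothing is read from that count. *Ccl9* had means of 225 and 196 jointly scaled counts in the untreated WT groups of the *Mtg16*-/- and T/T colonies and 527 and 665 after DSS, then 1275 in *Mtg16*-/- and 1143 in T/T crypts. *Mal* went from 26.7 and 13.4 to 168 and 373 in WT, 728 in *Mtg16*-/- and 1008 in T/T crypts.

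The same ranking was made within the groups after DSS, as a description without a test. With each group's mean taken off, over 13 libraries and 14241 genes, the first 10 were *Nrep*, *Amt*, *Ephx4*, *Mmd*, *Brd3*, *Vsig2*, *Igf2bp2*, *B3gnt6*, *Auts2* and *Nid2*. Their r lay between 0.84 and 0.89, and how many genes would reach this by chance with so few libraries was not tested. Of the 10, 0 were among the 10 above, which says little for lists so short among so many genes. All 10 had lower values in distal than in proximal WT crypts, beside 49.4% of all genes (-4.29 for *Vsig2*, which encodes an immunoglobulin-domain surface protein, to -0.23 for *Brd3*, a bromodomain protein).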

How the data were processed

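The 42 libraries hold RNA of mouse colon crypts and colon tumors. Per the study's methods and the labels, the authors trimmed reads with fastp 0.20.0, quantified them with Salmon 1.3.0 against GENCODE vM21 (GRCm38) and tested genes with DESeq2 1.26.0 in R 3.6.3. The deposited signal is a normalized count in each of 9 tables, that is, the authors' count per gene divided by 1 size factor per library. Means, log2 fold changes, their errors, test scores and p-values of the authors' own comparisons were deposited beside it and were not used. No per-sample column was left unused (0).

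Whole reads were recovered by dividing each column by its step. In the 7 tables used for this, 100.0% of values up to 1000 reads came within 0.01 of a whole number, and libraries in 2 tables gave the same reads. The reads of 38 libraries were scaled together by TMM (edgeR 4.0.16). Genes with a mean of at least 10 were tested on log2(count + 1) with limma 3.58.1 (trend) in R 4.3.3. P-values were adjusted by Benjamini-Hochberg over all genes tested and called under 0.05. Exact permutation tests were two-sided. edgeR and DESeq2 1.42.0 were fitted to the recovered reads as alternatives, though not to the proximal mutant tables. The code was tested on simulated data. Some genes are not reported here.

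The gene, the gene lists and the marker lists were chosen with earlier results of these data known. Named were *Pcsk5*, *Cbfa2t3*, listed genes with the largest changes among those called, 3 coding genes on each side, the 10 most alike genes in each of 2 rankings and the genes beside the 100-fold limit. The 24 proximal and 24 distal genes, *Gdf11* and the removal of the trend over transcript length (longest transcript in GENCODE vM21) were chosen after values were seen. Tests of *Pcsk5* planned for WT distal against proximal crypts, tumors against untreated crypts, T/T against WT crypts after DSS and both mutants against WT in untreated distal crypts were dropped afterwards, since their WT distal libraries took part in the choice. edgeR, DESeq2, the replicate block and the 5094 libraries without the library against its label were added after seeing the data. Same-numbered libraries deviated together in all 3 pairs in 1 comparison, *Mtg16*-/- against WT after DSS (r of 0.55, 0.46 and 0.32), where the numbers were taken to pair them. No source says that a number marks a shared litter, and separate libraries are taken as separate mice, so p-values measure the spread between libraries.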

Additional observations from a re-analysis of the deposited data

Results flagged for a closer look

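A couple of libraries stood apart from their group in *Pcsk5*, by the gap to the nearest library over the group's range, in the 4 groups of 4 libraries that were looked at. This happens by chance in about 1 of 20 groups. The untreated distal *Mtg16*-/- library replicate 2 had 3196 normalized counts, with the other 3 between 0.947 and 17.4, and it is the library whose segment genes went against its label. The untreated distal T/T library replicate 4 had 30.6, with the other 3 between 0 and 3.39.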

How the results depend on the processing

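Of 163 alternatives, 159 kept the sign of the value, and of the 39 with a test 35 kept its side of the threshold. In T/T against WT crypts after DSS, set against WT mice of the other colony the value was 3.35, and leaving out 1 library gave 1.68 to 2.47. In untreated distal *Mtg16*-/- crypts (3.69) edgeR gave 9.01, DESeq2 9.22 and libraries named with 5094 alone 7.32, and without the library against its label the last gave 3.596, while edgeR and DESeq2 gave no value for so few reads. Between WT segments a pseudocount of 0.1 gave -11.04 and DESeq2 -10.60, and for tumors against untreated crypts that pseudocount gave 6.70. T/T crypts after against before DSS ran from 7.40 to 9.16 with 1 library left out, not always past it. In tumors the range was -0.064 to 0.24, the lowest without T/T replicate 2, and in untreated distal T/T crypts (0.42) the value was -0.65 without T/T replicate 4. In the *Mtg16*-/- colony a pseudocount of 0.1 gave 6.65 for WT crypts after DSS. *Mtg16*-/- crypts after against before DSS gave -0.31 with edgeR and -0.32 with DESeq2, with the library that went against its label included, and 6.51 and 6.49 without it. The causes of these shifts were not tested. With the replicate number as a block *Pcsk5* changed side in no tested comparison (9.16 for T/T after against before DSS) and was 2.08 for T/T against WT after DSS, though genes called went from 91 to 1271 in *Mtg16*-/- against WT after DSS, from 32 to 151 in proximal T/T, from 9 to 32 in proximal *Mtg16*-/-, from 33 to 1 in distal *Mtg16*-/- (143 to 42 without the library against its label), from 5 to 0 in distal T/T, from 4833 to 2679 and 721 to 1100 in WT after DSS of the T/T and *Mtg16*-/- colonies and from 568 to 69 in T/T after DSS. The numbers of the other comparisons share only a number. DESeq2 called 331 genes for T/T against WT after DSS (0 by limma), 727 for *Mtg16*-/- (91), 202 and 53 in untreated distal mutants (33 and 5; 289 for *Mtg16*-/- without that library, 143 by limma), 1386 for T/T after DSS (568), 1350 for WT of the *Mtg16*-/- colony (721) and 24 in tumors (0). Without WT replicate 2 of the T/T colony, 1 gene was called after DSS (4833 with it), and without DSS replicate 3, 9086. With 1 library left out, 28 to 106, 45 to 1141 and 398 to 1147 genes were called for *Mtg16*-/- against WT, T/T after DSS and WT of the *Mtg16*-/- colony, and 0 to 27 in proximal T/T. Within libraries named with 4149, 2014 genes differed between segments (5824 in all libraries). Reads per untreated distal library (0 to 30 but for 1 library) limit how well any ratio against them is known.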
